A study of Saccharomyces cerevisiae with 6 samples.

Results

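A set of 10 genes of trehalose and glycogen metabolism were examined for contact with the nuclear pore complex (NPC) after heat shock in budding yeast: *TSL1*, *TPS1*, *TPS2*, *TPS3*, *NTH1*, *GSY1*, *GSY2*, *GPH1*, *PGM2* and *GLK1*, 10 of 6002 nuclear protein-coding genes. Contact was scored from Nic96 ChIP-seq peaks that overlapped a gene by at least 1 bp or had their summit within 1 kb of it. The genes were chosen from a group known for induction by heat, and with the peak widths of these same data in view, since *TSL1* was selected on lying under the widest peak of the mutant. The counts are therefore descriptions of these genes, without a test.

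The tagged mutant cells, called *tho*, carried Nic96-13myc-KanMX and mft1::NatMX, and the tagged *wt* cells carried Nic96-13myc-KanMX alone. Both were BY4742 derivatives (MATalpha his3Δ1 leu2Δ0 lys2Δ0 ura3Δ0) with the plasmid pRS313, brought from 25 °C to 37 °C for 15 min. Each was set against its own untagged library at 37 °C, from mft1::KanMX and from *wt* cells, so that the deletion in the tagged and in the untagged *tho* cells carries another marker. Each of the 6 samples of the experiment is 1 library, and the 2 samples at 25 °C were not analysed here. No difference between the *tho* and *wt* libraries has a replicate check. The paper also scores *GSY2* by co-fractionation with NPCs in *tho* cells, and by separate Nic96 ChIP assays in cells overexpressing human RNase H1. It describes contact there as dependent on the accumulation of R-loops, in which nascent RNA pairs with its DNA template. Those assays were not used here. The *tho* list holds 664 peaks and the *wt* list 1248, of which 608 and 993 have a MACS2 q-value under 0.05 and were used, with median widths of 458 and 385 bp. Of these, 37 *tho* peaks and 0 *wt* peaks are mitochondrial, and ranks and medians within a list include them. The lists give no read numbers and hence no sequencing depth, and fold enrichments are compared only within a list. The lists also differ as a whole. The median −log10 q is 7.35 in *tho* and 2.57 in *wt*, and 100 *tho* and 43 *wt* peaks are over 1000 bp wide. Peak counts, widths and covered shares are not corrected for depth or for this difference. *MFT1* and *NIC96*, the deleted and the tagged gene, held no peak under this threshold in either list.

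Trehalose is made from UDP-glucose and glucose 6-phosphate by the synthase Tps1 and the phosphatase Tps2, which sit in a complex with the regulatory subunits Tsl1 and Tps3, and it is split again by the neutral trehalase Nth1. Glycogen is elongated by the synthases Gsy1 and Gsy2 and released as glucose 1-phosphate by the phosphorylase Gph1. The phosphoglucomutase Pgm2 interconverts glucose 1-phosphate and glucose 6-phosphate, and the glucokinase Glk1 makes glucose 6-phosphate. Both reserves build up in stressed yeast cells, and many of these genes are targets of the stress activators Msn2 and Msn4, which bind the stress response element (STRE). Nic96 is a scaffold nucleoporin, and Mft1 belongs to THO, a complex that packages nascent transcripts.

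The 3′ end of the coding sequence is shown for 4 genes because the *tho* summits lie there. Each run is the coding strand of sacCer3 from 20 bases before the *tho* summit to the stop codon, with the summit base and the stop codon in capitals. The runs lie at chrXIII:73728-73920 (*TSL1*), chrXII:662719-662833 (*GSY2*), chrXVI:863912-864014 (*GPH1*) and chrIII:52221-52340 (*GLK1*), all on the forward strand.
TSL1: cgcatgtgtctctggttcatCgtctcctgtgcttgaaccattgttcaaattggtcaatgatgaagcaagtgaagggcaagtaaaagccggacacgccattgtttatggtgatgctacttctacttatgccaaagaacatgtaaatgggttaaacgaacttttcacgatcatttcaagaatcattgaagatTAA
GSY2: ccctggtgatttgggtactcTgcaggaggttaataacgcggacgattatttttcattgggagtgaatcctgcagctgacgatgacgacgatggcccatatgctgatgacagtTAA
GPH1: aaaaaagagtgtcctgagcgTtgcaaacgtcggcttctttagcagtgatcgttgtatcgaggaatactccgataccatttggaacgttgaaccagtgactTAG
GLK1: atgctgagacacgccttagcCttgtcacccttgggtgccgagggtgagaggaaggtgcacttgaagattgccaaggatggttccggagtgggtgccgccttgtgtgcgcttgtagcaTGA

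In *tho*, 7 of the 10 genes had a Nic96 peak, *TSL1*, *TPS1*, *TPS2*, *GSY1*, *GSY2*, *GPH1* and *GLK1*, and in *wt* 5 did, *TSL1*, *NTH1*, *GSY1*, *GSY2* and *GLK1*. With q under 0.01 the *wt* count was 3, without *NTH1* and *GSY1*, and the *tho* count was 7. Over all 6002 genes the same rule called 14.3% in *tho* and 19.6% in *wt*. The 10 genes are long, with a median of 2190 bp against 1200 bp over all genes, and among the 1860 genes of 1488 to 3297 bp, their own range, 15.8% had a *tho* peak and 26.0% a *wt* peak. Peaks over 1000 bp lay at 6 of the 10 genes in *tho*, all of those with a peak except *TPS1*, and at *TSL1* and *GLK1* in *wt*. Over all genes 2.95% had such a *tho* peak and 0.900% such a *wt* peak, and in the length range these shares were 3.44% and 0.914%. A peak in each list was found at *TSL1*, *GSY1*, *GSY2* and *GLK1*, or 4 of 10, against 5.98% of all genes and 7.42% of those in the length range. Such peaks need not overlap, and at *GSY1* and *GSY2* they shared no base. *TPS3* and *PGM2* had no peak in either list. As the members were picked with such values known, nothing is read from these contrasts.

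**Figure D1:**
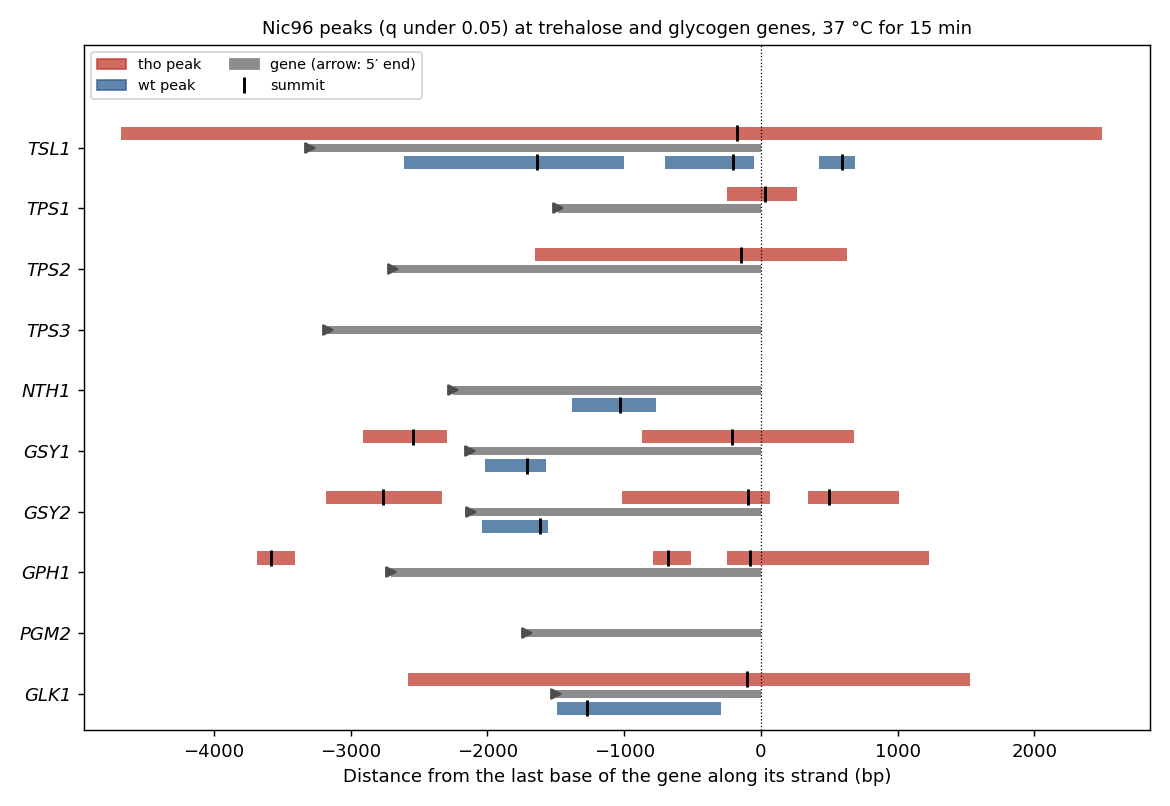
Position of Nic96 peaks along the 10 genes, which are drawn to scale in their own direction and aligned at the last base of the coding sequence (x axis, bp). Red bars are *tho* peaks and blue bars *wt* peaks with q under 0.05, and black ticks are summits. Red ticks gather near 0 in 7 genes, whereas blue bars lie mostly within genes.

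The widest *tho* peak covered *TSL1*, which encodes a regulatory subunit of the trehalose synthase complex, and the genes around it. *TSL1* (YML100W) lies on chromosome XIII from 70624 to 73920, on the forward strand. In *tho*, a single peak of 7176 bp, from 69240 to 76415, covered all of it, the small genes *CUE4* and YML100W-A before it, 32.8% of *CAC2* and 76.4% of the convergent *ARG81*. This peak ranked first of 608 in width and in −log10 q, and second in fold enrichment, which was 21.8 against a median of 1.95 in the list. Its summit was 172 bp before the last base of *TSL1*, at 94.8% of the gene length. In *wt*, the same stretch held 3 separate peaks, of 1607 bp in the middle of *TSL1*, of 652 bp in its 3′ part and of 261 bp over the 3′ end of *ARG81*. Together the first and second covered 68.5% of *TSL1*. Their fold enrichments were 2.36, 2.10 and 2.41, against a median of 1.76 in the *wt* list. All 3 *wt* peaks lay inside the *tho* peak and made up 22.4, 9.09 and 3.64% of its width, and the *wt* summit of the 652 bp peak was 31 bp from the *tho* summit.

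The catalytic genes of trehalose synthesis were in contact in *tho* alone. *TPS2*, the phosphatase gene (chromosome IV, 593893 to 596583, forward strand), lay under a *tho* peak of 2288 bp that covered 61.5% of the gene at its 3′ end. Its enrichment was 3.97-fold, and its summit lay 146 bp before the last base. The peak ran 61 bp into *PPH3*, the next gene in the same direction. *TPS1*, the synthase gene (chromosome II, 488905 to 490392, reverse strand), was touched over 16.9% of its length by a *tho* peak of 514 bp, whose summit lay 33 bp past its last base and outside any gene. No *wt* peak overlapped *TPS1* or *TPS2* or had its summit within 1 kb of them, and the nearest *wt* summits beyond that limit were 1616 and 8295 bp away. *TPS3*, which encodes the second regulatory subunit (chromosome XIII, 790205 to 793369, reverse strand), had its nearest summits 4894 bp away in *tho* and 3401 bp away in *wt*. *NTH1*, the trehalase gene (chromosome IV, 450220 to 452475, reverse strand), had no *tho* summit nearer than 78040 bp. It held 1 *wt* peak of 622 bp in the middle of the gene, which covered 27.6% of it. This peak was weak for its list, enriched 1.64-fold at a q-value of 0.0151. With 1 library each, whether *tho* and *wt* differ at these genes was not tested.

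At both glycogen synthase genes *tho* peaks lay over the 3′ end and before the start codon, and a *wt* peak lay between them in the 5′ part of the gene. *GSY1* (chromosome VI, 174265 to 176391, reverse strand) had a *tho* peak of 1550 bp over its last 40.9%, with the summit 213 bp before the last base, and a further *tho* peak of 615 bp with its summit 415 bp before the start codon. Its *wt* peak, of 449 bp, had its summit 412 bp into the gene, and 699 bases separated it from the 3′ *tho* peak and 276 from the upstream one. The q-value of this *wt* peak was 0.0279, and with q under 0.01 *GSY1* had no *wt* peak. *GSY2* (chromosome XII, 660716 to 662833, forward strand) showed the same layout, with *tho* summits 648 bp before the start, 94 bp before the last base and 500 bp past it, the last of these in *HSP60*. The *wt* summit lay 504 bp into *GSY2*, in a peak of 483 bp that was 293 bases from the first *tho* peak and 540 bases from the second. Peaks of both lists thus occurred at *GSY1* and *GSY2* without sharing a base. The fold enrichments of the *tho* peaks were 1.78 to 2.44, against a median of 1.95 in that list. Those of the *wt* peaks were 1.49 at *GSY1*, rank 967 of 993 and under the first quartile of 1.64, and 1.84 at *GSY2*, against a median of 1.76.

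*GPH1*, the glycogen phosphorylase gene (chromosome XVI, 861306 to 864014, forward strand), carried 3 *tho* peaks and no *wt* peak. The widest, of 1480 bp, spanned the junction with the convergent *SGV1*, covering 9.19% of *GPH1* and 40.4% of *SGV1*, and its summit lay 82 bp before the last base of *GPH1*, with a fold enrichment of 2.77. A peak of 278 bp lay inside the gene, 677 bp before its last base at the summit. The third, also of 278 bp, had its summit in a tRNA gene 873 bp before the start of *GPH1*, the farthest of all summits counted within the 1 kb limit. The nearest one left out by that limit was a *tho* summit 1172 bp from *TPS2*, which had a peak already. *GLK1*, the glucokinase gene (chromosome III, 50838 to 52340, forward strand), was covered in full by a *tho* peak of 4116 bp, the tenth widest of the list, which took in 29.6% of *PDI1* on one side and 54.9% of *GID7* on the other. This peak also covered all of YCL042W, a gene that overlaps the 5′ end of *GLK1*. Its fold enrichment was 3.08 and its summit was 99 bp before the last base of *GLK1*. In *wt*, a peak of 1204 bp covered 80.1% of *GLK1*, inside the *tho* peak, but with its summit 228 bp into the gene and 1175 bp from that of *tho*. *PGM2* (chromosome XIII, 475897 to 477606, reverse strand) had no peak under the threshold. The *wt* list gives it a peak of 721 bp with a q-value of 0.137 and a fold enrichment of 1.41, and the nearest *tho* summit was 2877 bp away.

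**Figure D2:**
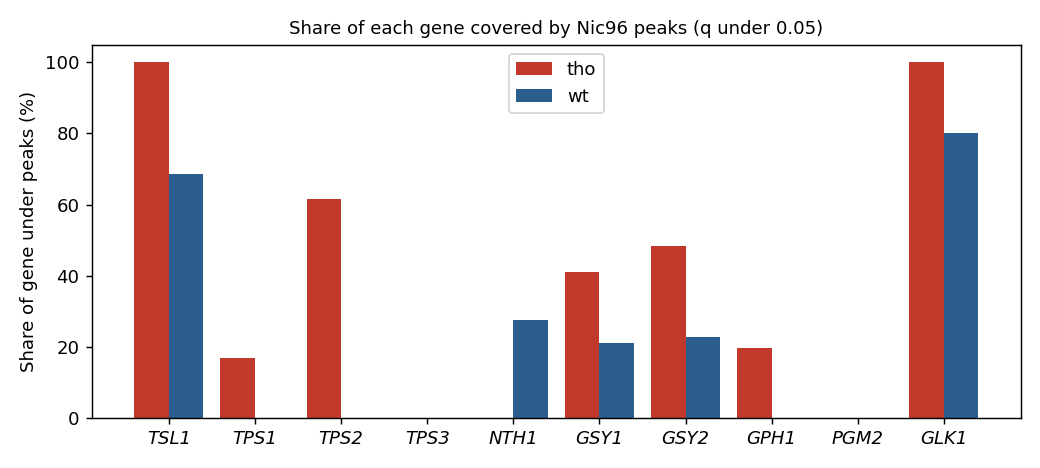
Share of each gene under Nic96 peaks with q under 0.05 (y axis, %), as red bars for *tho* and blue bars for *wt*. *TSL1* and *GLK1* are the most covered in both lists, *TPS1*, *TPS2* and *GPH1* have a red bar only, and *NTH1* has a blue bar only.

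The share of a gene under peaks summed up these patterns. In *tho* it was 100% for *TSL1* and *GLK1*, 61.5% for *TPS2*, 48.2% for *GSY2*, 40.9% for *GSY1*, 19.5% for *GPH1*, 16.9% for *TPS1* and 0% for *TPS3*, *NTH1* and *PGM2*. In *wt* it was 80.1% for *GLK1*, 68.5% for *TSL1*, 27.6% for *NTH1*, 22.8% for *GSY2*, 21.1% for *GSY1* and 0% for the other 5. The median over the 10 genes was 30.2% in *tho* and 10.6% in *wt*. The *wt* median was 0% with q under 0.01 and 22% with all deposited peaks, while that of *tho* was 30.2% in both settings. Over all genes the median was 0% in both lists, with means of 38.7 and 22% for the 10 genes against 3.17 and 4.03% over all genes. Genes at least 50% covered were *TSL1*, *TPS2* and *GLK1* in *tho*, or 3 of 10, and *TSL1* and *GLK1* in *wt*, or 2 of 10. The background was 2.63% in *tho* and 2.12% in *wt* over all genes, and 1.77% and 1.18% in the length range. In all, 58 genes were fully covered in *tho* and 13 in *wt*.

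**Figure D3:**
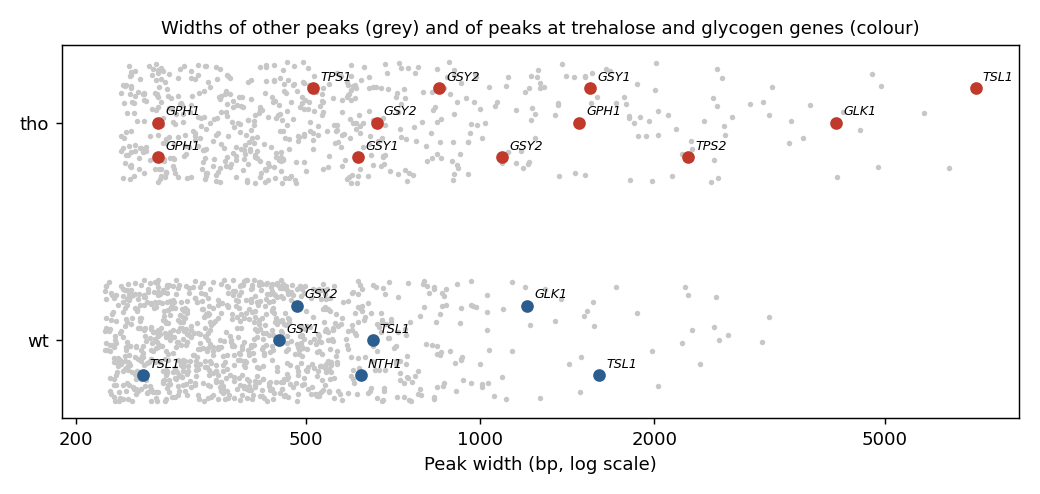
Width of each peak with q under 0.05 (x axis, bp, log scale) in *tho* (upper row) and *wt* (lower row). Coloured points are the 12 *tho* and 7 *wt* peaks at the 10 genes, named by gene, and grey points are all other peaks, spread vertically for display. The *TSL1* point at 7176 bp is the rightmost of the *tho* row.

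Of the 608 *tho* peaks, 12 belonged to the 10 genes, with widths of 278 to 7176 bp (median 970 bp) and fold enrichments of 1.78 to 21.8 (median 2.23). Of the 993 *wt* peaks, 7 did, with widths of 261 to 1607 bp (median 622 bp) and fold enrichments of 1.49 to 2.41 (median 1.84). Of the peaks that overlapped a gene of the set, 1 of 8 in *tho* and 6 of 6 in *wt* lay wholly inside it. None of the 10 genes contains a stretch of 75 bases, the read length, that occurs again in the genome, and among their peaks only the *tho* peak on the tRNA gene before *GPH1* does, for 3.92% of its 75-base stretches. Paralogous pairs such as *GSY1* and *GSY2* therefore share no stretch of this length.

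The *tho* summits gathered at the 3′ ends of the genes. For each gene the peak with the largest overlap was taken, and in *tho* its summit was within 250 bp of the last base for 6 of 7 genes, the exception being *GPH1*, whose inner peak overlaps by 278 bp and its 3′ peak by 249 bp. In *wt* this held for 0 of 5 genes, although the 652 bp *wt* peak of *TSL1*, which overlaps less, had its summit 203 bp before the last base. Over all genes overlapped by a peak the shares were 40.2% in *tho* (180 of 448) and 16.9% in *wt* (134 of 792), and in the length range 44.7% and 9.41%. The summit was nearer to the last than to the first base in 7 of 7 genes in *tho* and in 2 of 5 in *wt*, *TSL1* at 50.2% and *NTH1* at 54.3% of the gene length, whereas the background was 66.3% and 59.0% over all overlapped genes and 76.3% and 64.2% in the length range. The median position was 94.6% of the gene length for the 7 genes in *tho* and 23.8% for the 5 genes in *wt*, against 80.8% and 57.3% over all overlapped genes and 90.1% and 59.7% over those in the length range. The genes were chosen with earlier results of these data known, so summit position cannot be taken as independent of that choice. These counts and positions are therefore descriptions, and nothing is read from their contrasts with the background. Past the 3′ end, *TSL1*, *GSY2*, *GPH1* and *NTH1* have a convergent neighbour. The neighbour of *TPS1*, *TPS2*, *TPS3*, *GSY1*, *PGM2* and *GLK1* runs in the same direction. Of these genes, *NTH1*, *TPS3* and *PGM2* had no *tho* peak. The 3′ location in *tho* occurred in both arrangements.

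**Figure D4:**
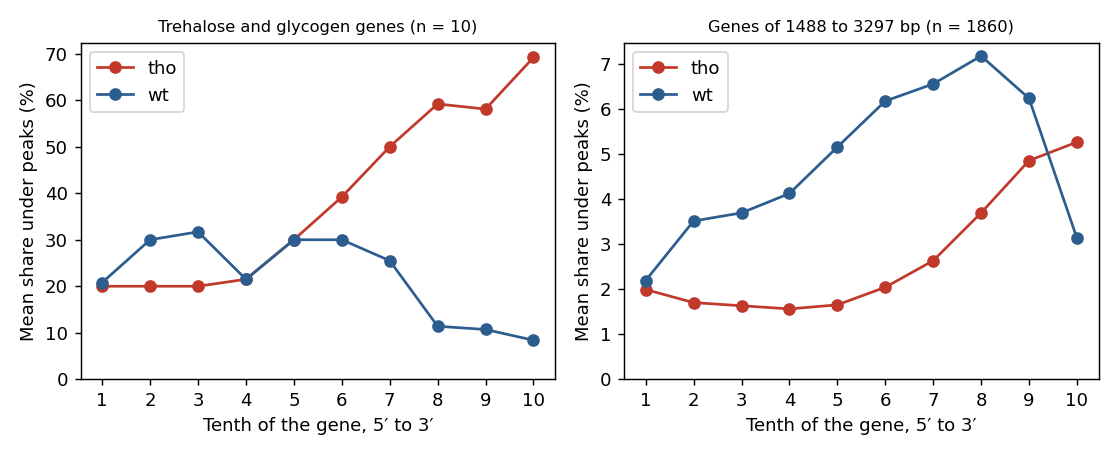
Mean share under Nic96 peaks (y axis, %) in 10 equal bins along the gene from the 5′ to the 3′ end (x axis), for the 10 genes on the left and for all 1860 genes of 1488 to 3297 bp on the right, with *tho* in red and *wt* in blue. The vertical scales differ. On the left, *tho* reaches 69.2% in the last bin, where *wt* is at 8.39%.

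Along the 10 genes, the mean share under *tho* peaks was 20% in the first bin and 69.2% in the last, and under *wt* peaks 20.8% in the first, 31.7% in the third and 8.39% in the last. In the last bin 7 genes were touched by a *tho* peak and 1, *TSL1*, by a *wt* peak. Over the 1860 genes of like length, coverage in *tho* was 1.99% in the first bin and 5.26% in the last, and in *wt* 2.19% in the first, 7.17% in the eighth and 3.13% in the last. Coverage in *tho* was thus higher at the end than at the start in both sets, and coverage in *wt* was lower in the last bin than in the one before it in both.

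Contacts were also found at other genes of reserve carbohydrate metabolism, where *tho* peaks overlapped 4 genes and lay upstream of 5, with both at *UGP1* and *HXK1*. Of 23 such genes, 7 had a *tho* peak (30.4%), *UGP1*, *PGM1*, *HXK1*, *HXK2*, *NTH2*, *GDB1* and *SGA1*, and 7 had a *wt* peak, *HXK1*, *EMI2*, *ATH1*, *GDB1*, *SGA1*, *GIP2* and *GLC8*. Peaks over 1000 bp lay at *HXK1* and *GDB1* in *tho* and at none in *wt*. *HXK1*, a hexokinase gene, was covered over 92.8% by a *tho* peak of 4749 bp with its summit 93 bp before the last base, and held *wt* peaks of 342 and 533 bp. *GDB1*, the glycogen debranching enzyme gene, lay under a *tho* peak of 3414 bp with its summit 308 bp before the last base, and its *wt* peak of 473 bp lay in the middle of the gene. At *UGP1*, which makes UDP-glucose, and at *NTH2*, the second neutral trehalase gene, *tho* summits were 112 and 169 bp before the last base, and no *wt* peak was found. *PGM1*, *HXK2* and *SGA1* had upstream *tho* peaks only, with summits 478, 241 and 334 bp before the start, the first of these in a tRNA gene. *GLC3*, *GLG1*, *GLG2*, *GAC1*, *PIG1*, *PIG2*, *GLC7*, *PCL6*, *PCL7*, *PCL8*, *PCL10* and *PHO85* had no peak in either list. Among 8 Hsp70 genes, heat shock genes of another class, 5 had a *tho* peak and 4 a *wt* peak, with peaks over 1000 bp at 4 in *tho*, *SSA1*, *SSA2*, *SSA3* and *SSA4*, and at 2 in *wt*, *SSA1* and *SSA4*. Among 14 core glycolytic genes 5 had a *tho* peak and 4 a *wt* peak, none over 1000 bp. The shares over all genes were 14.3% and 19.6% for any peak and 2.95% and 0.900% for a peak over 1000 bp, in *tho* and in *wt*. No difference between these lists was tested.

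All 10 genes carried the STRE upstream, a feature that the choice of genes did not use directly, although heat-induced genes are known for it. The STRE was searched as AGGGG on both strands in the 500 bases before each start codon, a window that can reach into a neighbouring gene. All 10 genes had at least 2 matches, against 8.13% of 6000 genes with such a window, and 6 had at least 3, against 1.83%. *TPS1* had 6, *TSL1* and *PGM2* 5 each, *TPS2* 4, *NTH1* and *GLK1* 3 each, and *TPS3*, *GSY1*, *GSY2* and *GPH1* 2 each. Pairs of the heat shock element, GAANNTTC or TTCNNGAA, bound by Hsf1, were in 2 of the 10 windows, 3 at *TSL1* and 1 at *TPS1*, against 35.2% of all genes. *PGM2*, with 5 STRE, and *TPS3*, with 2, had no peak in either list. The *tho* peaks covered all of the 500 bases before *TSL1* and *GLK1*, 66.4% of those before *GSY1* and 56.4% of those before *GSY2*, and none of those before the other 6, and *wt* peaks covered none of them at any of the 10 genes.

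The promoters of *TSL1* and *GLK1*, which are under *tho* peaks, are set beside that of *TPS3*, which had no peak. These genes serve as examples only. *PGM2*, with 5 STRE, had no peak either, and *GSY1*, *GSY2* and *GPH1*, with 2 each, had *tho* peaks. Each run holds the 300 bases from 350 to 51 before the start codon, read along the gene in sacCer3, with STRE matches in capitals. They lie at chrXIII:70274-70573 on the forward strand (*TSL1*), chrIII:50488-50787 on the forward strand (*GLK1*) and chrXIII:793420-793719 on the reverse strand (*TPS3*).
TSL1: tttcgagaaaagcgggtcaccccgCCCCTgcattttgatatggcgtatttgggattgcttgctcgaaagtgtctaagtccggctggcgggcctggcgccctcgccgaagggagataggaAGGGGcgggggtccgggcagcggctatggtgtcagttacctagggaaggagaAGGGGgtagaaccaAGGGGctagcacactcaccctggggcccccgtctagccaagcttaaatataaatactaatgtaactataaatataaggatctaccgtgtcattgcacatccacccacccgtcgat
GLK1: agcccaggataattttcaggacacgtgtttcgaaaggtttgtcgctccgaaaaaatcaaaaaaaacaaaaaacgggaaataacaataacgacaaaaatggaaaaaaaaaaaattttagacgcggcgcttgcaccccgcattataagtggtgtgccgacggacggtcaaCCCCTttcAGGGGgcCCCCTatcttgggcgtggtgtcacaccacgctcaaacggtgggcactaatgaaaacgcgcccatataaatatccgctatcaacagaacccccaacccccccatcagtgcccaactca
TPS3: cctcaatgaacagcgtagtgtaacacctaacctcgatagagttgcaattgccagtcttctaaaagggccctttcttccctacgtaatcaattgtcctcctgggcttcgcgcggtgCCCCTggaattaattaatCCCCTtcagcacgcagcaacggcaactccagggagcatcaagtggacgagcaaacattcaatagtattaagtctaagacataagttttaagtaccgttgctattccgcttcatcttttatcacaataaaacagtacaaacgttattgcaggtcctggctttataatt
The run of *TSL1* holds 4 of its 5 matches, and those of *GLK1* and *TPS3* hold all. The matches stand apart along the *TSL1* run, crowd within a short stretch in *GLK1* and form a pair in *TPS3*. A match is a run of letters, and binding was not measured.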

How the data were processed

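Both reads of a pair were 75 bases long. The authors aligned them to sacCer3 using Bowtie2 and kept perfect matches, discarded duplicates (SAMTools rmdup), and ran MACS2 on FPKM-normalized fragments. Each Nic96-myc sample was set against untagged cells of its strain at 37 °C. Versions of these tools are not given in the sources used here. The fold enrichment deposited for a peak is a ratio of tagged over untagged cells. Also deposited are −log10 values of the p-value and of the q-value. A deposited score equals 10 times −log10 p, cut to a whole number, in every line. Starts were deposited counting from 0, and 1 was added.

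The methods state a q-value under 0.05, which 56 *tho* and 255 *wt* peaks exceed, and these were set aside and used as an alternative. Genes came from the R64 annotation, whose chromosomes hold every peak and whose gene coordinates span the coding sequence. Exact binomial intervals at the 95% level are given only for some shares of genes by number of STRE, and cover counting only. With 1 library per condition no test between conditions was made. All 10 genes are named, as are genes of the other lists with a peak. The members and lists were chosen with earlier results of these data known, and the length range and the STRE counts at other genes after the peaks had been seen. Computation used Python 3.11.15 with pandas 2.3.3, scipy 1.17.1 and numpy 2.4.6, figures were drawn with matplotlib 3.10.9, and the linking of peaks to genes was tested on simulated peaks. Alternatives covered the q-value threshold, the link of a peak to a gene, the joining of neighbouring peaks, and the width and coverage limits.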

Additional observations from a re-analysis of the deposited data

How the results depend on the processing

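In *tho*, the 7 genes with a peak and the 6 with a peak over 1000 bp stayed within 1.5 times their number under every alternative run, with the lowest counts at 6 when the summit had to lie inside the gene (*TPS1* dropped out) and at 4 with a width limit of 1500 bp. Those at least 50% covered numbered 3, and 2 with the limit at 80%. In *wt* the values moved more. With q under 0.01, 3 genes had a *wt* peak in place of 5, *NTH1* and *GSY1* being lost, and the median share covered was 0%. With all deposited peaks that median was 22%, *PGM2* then being covered over 42.2%. With a width limit of 1500 bp 1 gene, *TSL1*, had a wide *wt* peak, and with at least 80% covered 1 gene, *GLK1*, passed. Each of these follows from the limit that was changed. Of 46 values for the main counts and medians under the alternatives, 41 kept within 1.5 times and 5 did not. Limits are set by the unknown depth and by 1 library per condition.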

Other observations

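The share of other genes with a peak was tabulated by the number of STRE, after the counts at the 10 genes had been seen. Among the 10 genes that number did not track contact, since *PGM2*, with 5, had no peak, and *GSY1*, *GSY2* and *GPH1*, with 2 each, had one in *tho*. The 10 genes and 16 genes that share a peak with them were left out, and STRE were counted in the 500 bases before the start codon as above. In *tho*, a peak was found at 30.4% of genes with 3 or more STRE (31 of 102, exact binomial 95% interval 21.7 to 40.3%), 20.2% of genes with 2 (75 of 371), 17.5% of genes with 1 (271 of 1551) and 11.6% of genes with none (457 of 3950, interval 10.6 to 12.6%). In *wt* the shares were 25.5% (26 of 102, interval 17.4 to 35.1%), 18.1, 23.1 and 18.1% in the same order, which do not run with the number of STRE. Peaks over 1000 bp were at 8 of the 102 genes in *tho* (7.84%), against 4.58, 3.68 and 1.97% of genes with 2, 1 and no STRE. In *wt* the shares were 1.96, 1.08, 0.58 and 0.886% in the same order. The 8 genes were *HSP42*, *SSA4*, *BMH1*, *HXK1*, *XBP1*, *YAK1*, *HSP104* and YLR177W, of which all but *XBP1* also had a *wt* peak. Over all genes, 359 of the 858 with a *tho* peak of any width also had a *wt* peak. The matching share for *tho* peaks over 1000 bp is not given here, so the 2 counts are not alike. For the heat shock element the *tho* shares were 14.8% of genes with at least 1 and 13.5% of genes with none. Neighbouring genes share peaks and promoters, so these intervals cover counting of genes only, and no test of the pattern was made.

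Upstream *tho* peaks that did not touch the gene lay at 5 of 14 core glycolytic genes (35.7%) and at 3 of the 10 trehalose and glycogen genes (30%), and no gene of either set had such a *wt* peak. All 5 *tho* peaks linked to them, at *PGI1*, *PFK2*, *TDH3*, *PGK1* and *CDC19*, were of this kind, with summits 382 to 887 bp upstream of the start, and all 4 *wt* peaks, at *PFK1*, *PFK2*, *TPI1* and *ENO2*, overlapped the gene. Over all genes 5.76% had such an upstream *tho* peak and 7.46% an overlapping one, against 4.15% and 13.2% in *wt*. *PFK2*, a phosphofructokinase subunit gene, had both, a *tho* summit 512 bp before its start and a *wt* summit 303 bp before its last base.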
